A study of Mus musculus with 7 samples.

Results

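The comparison described here sets Ly6G+ bone marrow cells of RUNX1 mutant mice (RUNX1mut) against Ly6G+ cells of Control mice. Its members are the genes with 1 TPM or more in either of these 2 libraries, which held for 10077 of the 28987 genes listed. A gene that reached this level in only 1 of the libraries had to be higher there in deposited TPM, in every list below. The kept gene nearest that threshold reached 1.0006 TPM and the nearest gene left out 0.999 TPM, with 216 and 206 genes within 0.1 TPM of it on either side. TPM is a length-normalized share of all transcripts in a library. All mice were C57BL/6, the bone marrow came from individual animals, and Ly6G+ mutant myeloid cells were collected by fluorescence-activated sorting. Neither group carried the HMGA2 overexpression (HMGA2-OE) that was the other genotype of the study, which had 7 libraries in 6 groups. The other Ly6G+ libraries were 1 of RUNX1mut/HMGA2-OE and 1 of HMGA2-OE, and the remaining 3 came from stem and progenitor cells (HSCPs). The RUNX1 allele, the means of HMGA2 overexpression, how mutant and Control cells were gated, and the age of the mice are not stated by the labels. With 1 library a side, no spread between mice of a genotype could be estimated, so the values are log2 ratios without a test.

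RUNX1 is the DNA-binding subunit of a heterodimer with the cofactor CBFB, and it both activates and represses genes of the myeloid, megakaryocytic and lymphoid lineages. Mutations of it are found in myeloid neoplasms. Ly6G marks mouse neutrophils, which fill their granules in order during maturation: primary granules with myeloperoxidase and serine proteases in promyelocytes, secondary granules with lactoferrin and NGAL in myelocytes, and tertiary granules with gelatinase later, while surface receptors for chemoattractants and the oxidase are completed last.

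The labelled cell type had its markers in both libraries. The 11 Ly6G+ neutrophil markers summed to 554794 TPM in the RUNX1mut library and 595268 TPM in the Control library, or 56.0% and 60.1% of all TPM. S100a8 alone, a subunit of calprotectin, was at 398580.0 TPM in the RUNX1mut library, 30622 TPM in RUNX1mut/HMGA2-OE, 546267 TPM in HMGA2-OE and 439280.0 TPM in Control. The RUNX1mut/HMGA2-OE library thus stood apart for S100a8, and the typical gene had a deposited TPM 1.26 log2 units higher there than in HMGA2-OE. The same shift between RUNX1mut and Control was 0.18. Both shifts were removed from all log2 ratios below by scaling, and ratios are of scaled TPM plus 1, a scale that understates the change of low genes. TPM given per library are as deposited, before scaling, and each order of the 4 libraries stated for a single gene below also held with all 4 scaled to Control, a check added after seeing the data. At 1 TPM or more there were 9670 genes in the RUNX1mut library and 9096 in the Control library.

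Runx1 itself (chr16:92601466-92826149, minus strand, GRCm38) was at 11.6 TPM in RUNX1mut, 21.2 TPM in RUNX1mut/HMGA2-OE, 3.36 TPM in HMGA2-OE and 3.85 TPM in Control. Both mutant libraries were above both libraries without the mutation, with log2 ratios of 1.22 for RUNX1mut over Control and 1.25 for RUNX1mut/HMGA2-OE over HMGA2-OE. A gene-level value cannot show which allele the transcripts came from, so it is no check of the genotype label. Of the paralogs, Runx3 was at 14.3 TPM in RUNX1mut and 1.65 TPM in Control (log2 2.39), and Runx2 at 5.57 TPM in RUNX1mut and 4.44 TPM in Control (log2 0.12). Cbfb, the partner subunit, was at 10.3 TPM in RUNX1mut and 7.397 TPM in Control (log2 0.26). Hmga2 was at 1.36 TPM in RUNX1mut and 1.45 TPM in Control and at 12.1 TPM in RUNX1mut/HMGA2-OE and 3.72 TPM in HMGA2-OE. Of 10 genes of the RUNX family and its cofactors 9 were kept, and 2 were at least 2-fold higher in RUNX1mut, Runx1 and Runx3, as were 5.88% of all kept genes. At least 2-fold lower, as were 4.23% of all kept genes, was 1, the corepressor Cbfa2t2 with 3.59 TPM in RUNX1mut and 10.98 TPM in Control.

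Across the 10077 genes, 593 (5.88%) were at least 2-fold higher in RUNX1mut and 426 (4.23%) at least 2-fold lower, 10.1% in either direction. At 4-fold, 144 genes (1.43%) were higher and 86 (0.853%) lower. The median log2 ratio was -0.01 and 4988 genes (49.5%) were above 0. Without scaling the split became 743 higher and 349 lower, with a median of 0.15 over all genes. The only replicates of the study, 2 HSCP libraries of RUNX1mut/HMGA2-OE, differed 2-fold or more in 893 of 13017 genes (6.86%). The SD of the log2 ratio over genes was 0.71 for RUNX1mut over Control and 0.60 for that replicate pair. Among genes with 10 TPM or more in either library, 9.7% were 2-fold apart between RUNX1mut and Control and 4.22% between the replicates, a pair of another cell type whose spread may not carry over to Ly6G+ cells. Of the 43 gene lists described below, 28 had a median larger in size in RUNX1mut over Control than between these replicates and 15 did not.

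**Figure D1:**
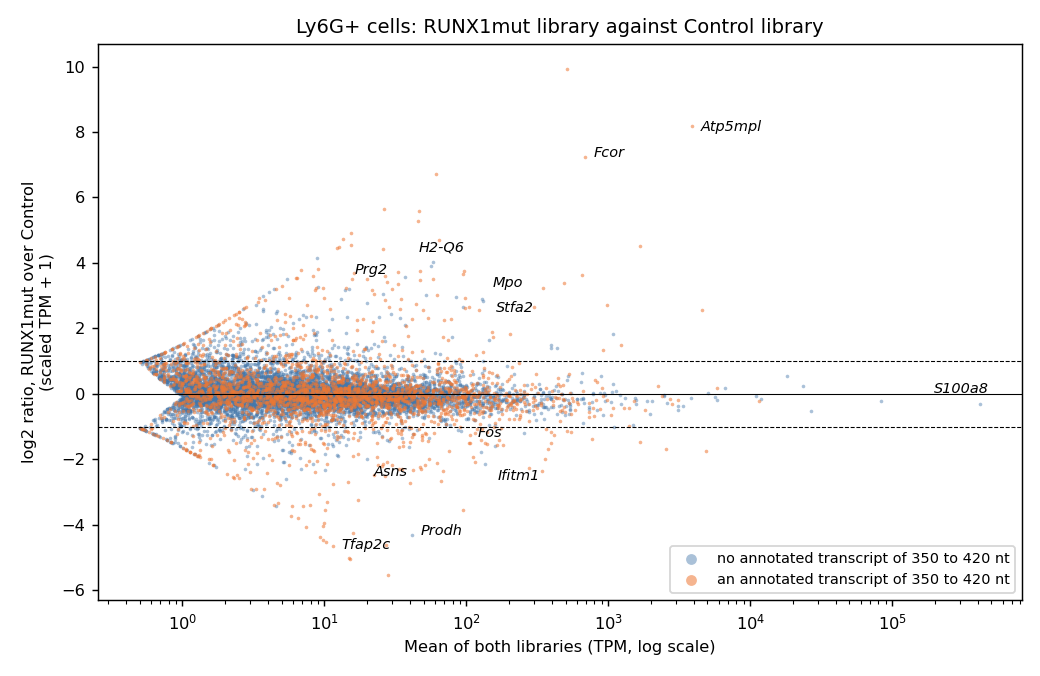
Log2 ratio of RUNX1mut over Control Ly6G+ cells (scaled TPM plus 1, vertical axis) against the mean level of the 2 libraries (TPM, log axis), 1 point a gene for the 10077 genes kept. Dashed lines mark 2-fold; orange points, genes with an annotated transcript of 350 to 420 nt, make up most of the points beyond 4-fold at 10 TPM or more.

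A feature of the annotation moved with the size of the ratio. Among genes with 10 TPM or more and an annotation, 27.8% of the 730 with an annotated transcript of 350 to under 380 nt were 2-fold apart and 14.1% were 4-fold apart, in both directions (90 higher and 113 lower). Genes without any transcript of 350 to 420 nt were 2-fold apart in 5.33% of 2964 cases. In the pair with HMGA2-OE the class that stood out was 380 to 420 nt (35% of genes 2-fold apart), and in the replicate HSCP pair it was 250 to 299 nt (13.9%). The class therefore differed between pairs of libraries, including one with no difference in genotype, and its part in the single ratios was not tested. Genes marked below as short-transcript genes have an annotated transcript of 350 to 420 nt. Without them, 333 of 7332 annotated genes (4.54%) were at least 2-fold higher and 184 (2.51%) at least 2-fold lower.

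**Figure D2:**
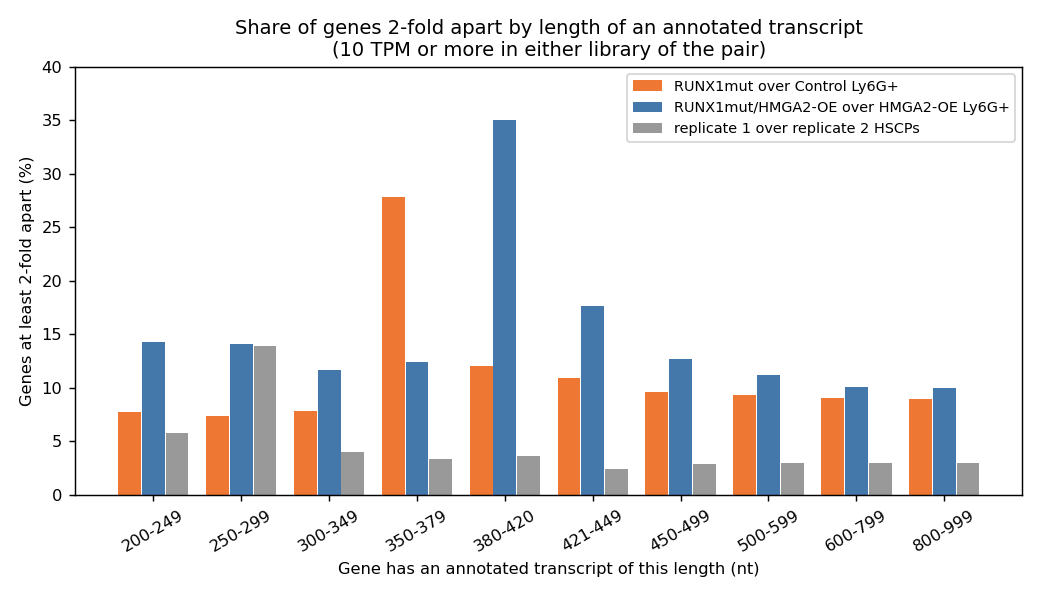
Share of genes at least 2-fold apart (%, vertical axis) among genes with 10 TPM or more in either library of a pair, by the length in nt of an annotated transcript (horizontal axis; a gene can be in several classes). Orange bars, RUNX1mut over Control, peak at 350 to under 380 nt with 27.8%; blue bars, RUNX1mut/HMGA2-OE over HMGA2-OE, peak at 380 to 420 nt with 35%; grey bars, the replicate HSCP libraries, peak at 250 to 299 nt with 13.9%.

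The 20 largest nameable ratios at 10 TPM or more in each direction were mostly of that kind. Of the 20 highest, 17 were short-transcript genes, led by Atp5mpl (7721 TPM in RUNX1mut, 22.5 TPM in Control), a small subunit of ATP synthase, and by Fcor (1358 TPM in RUNX1mut and 7.002 TPM in Control). The others of the 17 were Zfp579, Omt2a (30.8 TPM in RUNX1mut and listed at 0 in Control), Gtf2h2, Shisa5, Ecm1, Nop14, Srebf1, Slc12a9, Manea, Hspb11, Rhno1, Sft2d1, Foxj3, Itga2b and Cerkl, with log2 ratios between 3.52 and 5.28 where Control was above 0. The 3 remaining were H2-Q6, H2-Q7 and Prg2, described below. Of the 20 lowest, 19 were short-transcript genes, among them Tfap2c (0.0181 TPM in RUNX1mut, 22.9 TPM in Control), Arhgap18, Cldn7, Pla2g10, Mier2, Extl1, Sptbn4, Cystm1, Sgsm1, Srxn1, Car9, Surf6, Wdr75, Spink4, Inpp4a, Nadsyn1, Fntb and Spag5, and the genes named here had log2 ratios between -4.64 and -2.52. The remaining one was Prodh, a mitochondrial enzyme of proline breakdown, at 3.53 TPM in RUNX1mut, 4.59 TPM in RUNX1mut/HMGA2-OE, 3.43 TPM in HMGA2-OE and 79.2 TPM in Control (log2 -4.31). Control alone was high for Prodh, and the pair with HMGA2-OE gave -0.67. A further 11 and 8 genes ranked among these were clone names, pseudogenes or receptor segments and are not named.

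Within the neutrophil programme, genes of the primary granule were higher in RUNX1mut, and those of later granules, the mature surface and the oxidase were mostly lower by small amounts. Of 14 primary granule genes, 12 were kept, of which 6 were at least 2-fold higher and 0 at least 2-fold lower, with a median log2 ratio of 0.94 beside -0.01 over all genes. Between the replicate HSCP libraries, replicate 1 over replicate 2, the median of this list was 0.69. Myeloperoxidase, Mpo, was at 235 TPM in RUNX1mut, 228 TPM in RUNX1mut/HMGA2-OE, 53.2 TPM in HMGA2-OE and 28.4 TPM in Control (log2 2.83, and 0.84 in the pair with HMGA2-OE). Neutrophil elastase, Elane, was at 153 TPM in RUNX1mut, 101 TPM in RUNX1mut/HMGA2-OE, 26.7 TPM in HMGA2-OE and 16.6 TPM in Control (log2 2.95 and 0.65). The other serine proteases behaved alike: proteinase 3, Prtn3, had 58.1 TPM in RUNX1mut and 9.600 TPM in Control (log2 2.31), and cathepsin G, Ctsg, had 19.7 TPM in RUNX1mut and 2.79 TPM in Control (log2 2.300). Cathepsin C, Ctsc, which activates these proteases, was at 21.7 TPM in RUNX1mut and 7.67 TPM in Control (log2 1.22), and the chaperone calreticulin, Calr, at 54.2 TPM in RUNX1mut and 23.02 TPM in Control (log2 1.03). Not all members were higher: the elastase inhibitor Serpinb1a had 287 TPM in RUNX1mut and 382 TPM in Control (log2 -0.59), and Prss57 and the short-transcript gene Fcnb had log2 ratios of -0.53 and -0.47. Of the 6 stem and progenitor markers, 5 were higher in RUNX1mut too, with sums of 14.2 TPM in RUNX1mut and 6.17 TPM in Control, where Procr was listed at 0; their part in the primary granule ratios was not tested. In bulk samples, fewer cells of a type and less RNA per cell cannot be told apart.

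The 250 bases before the RefSeq starts of Elane and Ctsg are shown, on GRCm38.p6, as serine protease genes of the primary granule at least 4-fold higher in RUNX1mut. Capitals in Elane (chr10:79886062-79886311, plus strand) mark a CCAAT letter match on the opposite strand 173 bases before the RefSeq start, and no RUNX letters (TGTGGT on either strand) were found in this window. The Elane gene of GENCODE M21, the source of gene positions here, starts at 79886247, inside this window. Capitals in Ctsg (chr14:56102575-56102824, minus strand) mark a RUNX letter match on the opposite strand 79 bases before the start.
Elane: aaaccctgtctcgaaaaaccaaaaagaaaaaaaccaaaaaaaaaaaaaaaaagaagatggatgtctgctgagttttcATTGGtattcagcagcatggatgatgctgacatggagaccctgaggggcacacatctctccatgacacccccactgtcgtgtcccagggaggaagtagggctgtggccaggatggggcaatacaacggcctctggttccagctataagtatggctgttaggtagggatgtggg
Ctsg: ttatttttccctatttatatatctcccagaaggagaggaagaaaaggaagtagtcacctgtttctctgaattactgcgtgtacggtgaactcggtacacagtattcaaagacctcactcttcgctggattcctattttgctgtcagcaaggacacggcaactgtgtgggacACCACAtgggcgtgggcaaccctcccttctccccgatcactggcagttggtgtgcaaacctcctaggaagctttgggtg

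Of 27 secondary and tertiary granule genes, 26 were kept and 19 of them were below 0, with a median of -0.27, 1 at least 2-fold higher and 1 at least 2-fold lower. The antimicrobial cathelin Ngp was at 23596 TPM in RUNX1mut and 29874 TPM in Control (log2 -0.52), and haptoglobin, Hp, at 1111 TPM in RUNX1mut and 1883 TPM in Control (log2 -0.94). Other major products lay close together: lactoferrin, Ltf (short-transcript), had 11372 TPM in RUNX1mut and 11745 TPM in Control, Camp had 12032 TPM in RUNX1mut and 11840.2 TPM in Control, and Lcn2, which encodes NGAL, had 11418 TPM in RUNX1mut and 10629 TPM in Control. The one 2-fold lower member was the membrane-anchored protease Mmp25 (27.2 TPM in RUNX1mut, 51.97 TPM in Control, log2 -1.09), and the one higher was the short-transcript gene Adam8 (log2 2.73).

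All 30 mature neutrophil genes were kept. Of these 23 were below 0, 6 were at least 2-fold lower and 0 at least 2-fold higher, with a median of -0.32. The replicate HSCP libraries gave 0.50 for this list, larger in size. The decoy receptor Il1r2 (short-transcript) was at 75.8 TPM in RUNX1mut, 62.2 TPM in RUNX1mut/HMGA2-OE, 207 TPM in HMGA2-OE and 154 TPM in Control (log2 -1.19). The whey acidic protein family gene Wfdc17 was at 87.1 TPM in RUNX1mut, 101 TPM in RUNX1mut/HMGA2-OE, 272 TPM in HMGA2-OE and 232 TPM in Control (log2 -1.58). For both genes each mutant library was below each library without the mutation. The C-type lectin receptor Clec4e (short-transcript) had 17.5 TPM in RUNX1mut and 49.4 TPM in Control (log2 -1.62), and the chemokine receptor Cxcr1 0.728 TPM in RUNX1mut and 4.95 TPM in Control (log2 -1.897). Receptors at high level differed less: the G-CSF receptor Csf3r had 409.8 TPM in RUNX1mut and 533 TPM in Control (log2 -0.56), Cxcr2 had 309 TPM in RUNX1mut and 287 TPM in Control, and Ly6g, the sorting marker, had 341 TPM in RUNX1mut and 415 TPM in Control (log2 -0.46). Retnlg, a resistin-like secreted protein, went the other way with 22493 TPM in RUNX1mut and 13608 TPM in Control (log2 0.55). Of the 9 NADPH oxidase genes, all kept, 7 were below 0 and 0 were 2-fold apart, with a median of -0.37. They included the proton channel Hvcn1 (log2 -0.94), the catalytic subunit Cybb (short-transcript, -0.63) and the cytosolic subunits Ncf1 (-0.37) and Ncf4 (-0.38). The medians of the later granule, mature neutrophil and oxidase lists stayed negative without scaling, at -0.09, -0.14 and -0.19.

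**Figure D3:**
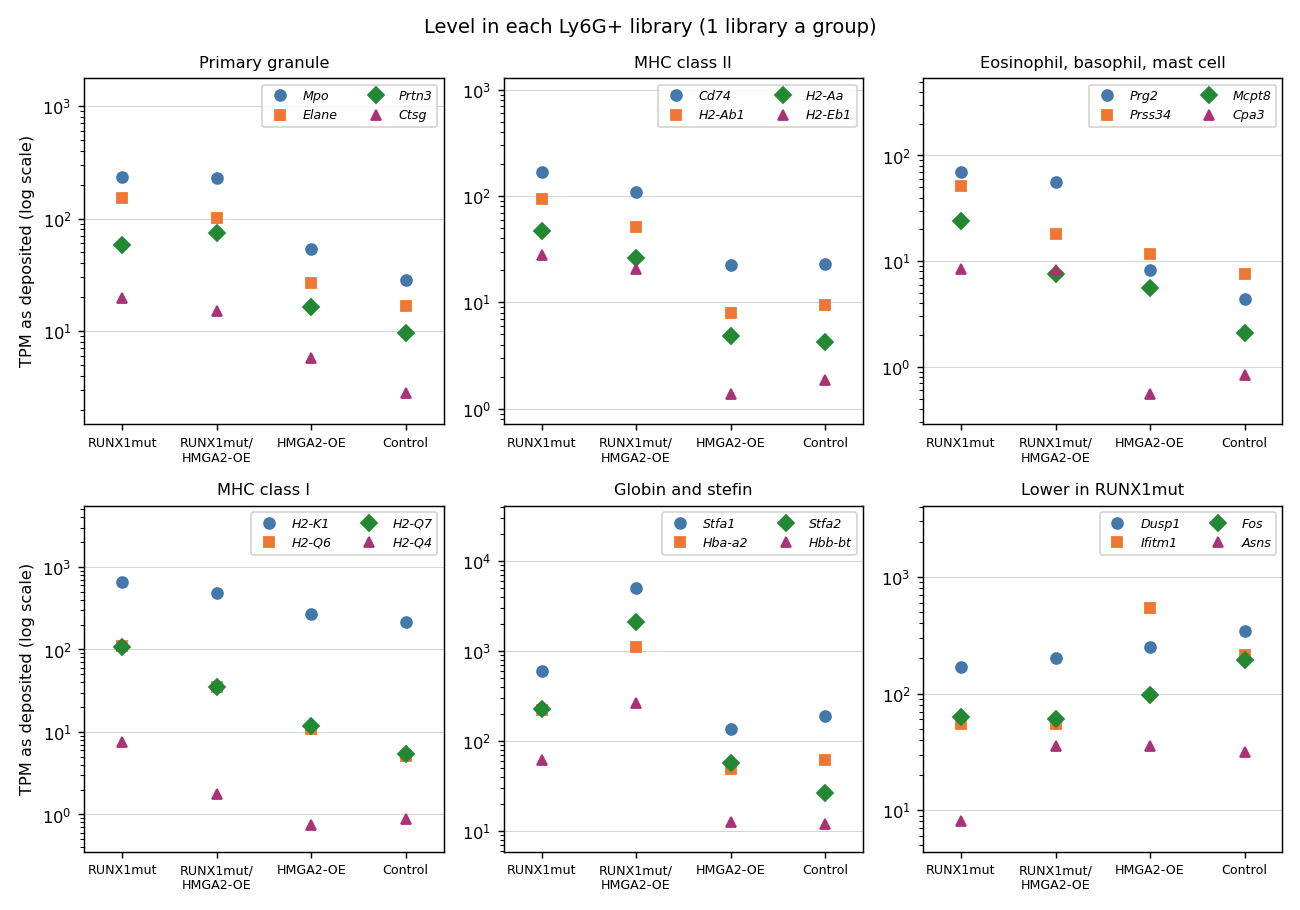
Deposited TPM (log axis, before scaling) of 24 genes in the 4 Ly6G+ libraries, 1 library a genotype, 4 genes a panel. Each gene of the first 5 panels is higher in RUNX1mut than in Control and each gene of the last panel is lower; TPM of the typical gene is 1.26 log2 units higher in RUNX1mut/HMGA2-OE than in HMGA2-OE, which the ratios in the text remove.

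Genes of antigen presentation were higher in RUNX1mut. MHC class II molecules present peptides to CD4 T cells and belong to B cells, dendritic cells and macrophages rather than to resting neutrophils. Of 11 class II genes 9 were kept, 6 at least 2-fold higher and 0 at least 2-fold lower, with a median of 1.68. H2-Ab1 was at 94.3 TPM in RUNX1mut, 50.9 TPM in RUNX1mut/HMGA2-OE, 7.96 TPM in HMGA2-OE and 9.37 TPM in Control (log2 3.03, and 1.35 in the pair with HMGA2-OE). The invariant chain, Cd74, was at 167 TPM in RUNX1mut, 109 TPM in RUNX1mut/HMGA2-OE, 22.5 TPM in HMGA2-OE and 22.9 TPM in Control (log2 2.64 and 1.004). The other classical chains, H2-Aa with 47.2 TPM in RUNX1mut and 4.25 TPM in Control and H2-Eb1 with 28.1 TPM in RUNX1mut and 1.87 TPM in Control, had log2 ratios of 3.04 and 3.195. Both mutant libraries were above both others for these 4 genes. The peptide exchange factors were closer to 0, with H2-DMb1 at 1.08 and H2-DMb2 at 0.00 (18.9 TPM in RUNX1mut and 16.7 TPM in Control). Markers of cells that make class II were higher in RUNX1mut as well: all 9 B lymphoid markers, with sums of 93.7 TPM in RUNX1mut and 28.6 TPM in Control, and all 9 monocyte and macrophage markers, with sums of 194 TPM in RUNX1mut and 113 TPM in Control. Neither set had a marker listed at 0, and their part in the class II ratios was not tested.

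Promoter sequence of both classical chains is shown because they were the class II genes with the largest ratios for which a promoter was held in the RefSeq table (GRCm38.p6). Class II promoters are known to carry an X box, part of which resembles a cyclic AMP response element (CRE), and a Y box, an inverted CCAAT. Capitals in H2-Aa (chr17:34287824-34288073, minus strand) mark CRE letters (TGACGT) on both strands, 74 and 72 bases before the start and overlapping, and CCAAT on the opposite strand 48 bases before it. Capitals in H2-Eb1 (chr17:34305617-34305866, plus strand) mark CCAAT on the opposite strand 59 bases and on the same strand 35 bases before the start. Neither window held the RUNX letters.
H2-Aa: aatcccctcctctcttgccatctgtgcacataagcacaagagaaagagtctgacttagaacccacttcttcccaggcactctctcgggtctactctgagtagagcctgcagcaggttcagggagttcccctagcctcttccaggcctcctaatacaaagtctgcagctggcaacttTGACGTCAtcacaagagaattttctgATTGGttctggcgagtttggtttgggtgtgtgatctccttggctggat
H2-Eb1: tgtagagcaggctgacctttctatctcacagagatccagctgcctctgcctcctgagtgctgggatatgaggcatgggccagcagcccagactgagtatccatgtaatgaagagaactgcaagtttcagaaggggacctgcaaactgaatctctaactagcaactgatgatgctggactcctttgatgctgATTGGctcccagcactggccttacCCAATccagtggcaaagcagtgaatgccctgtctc

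MHC class I molecules are made by nearly all cells and present peptides to CD8 T cells. Of 18 class I and peptide loading genes 17 were kept, 15 above 0, 6 at least 2-fold higher and 0 lower, with a median of 0.53. The nonclassical gene H2-Q6 was at 111 TPM in RUNX1mut, 34.9 TPM in RUNX1mut/HMGA2-OE, 10.8 TPM in HMGA2-OE and 5.17 TPM in Control (log2 4.01). H2-Q7 was at 107 TPM in RUNX1mut, 35.5 TPM in RUNX1mut/HMGA2-OE, 11.7 TPM in HMGA2-OE and 5.39 TPM in Control (log2 3.91). RUNX1mut was the highest library for both, but H2-Q6 and H2-Q7 are near-identical neighbours on chromosome 17, so the split of reads between them is uncertain, and H2-Q4 (log2 2.05) is related too. The classical gene H2-K1 had 649 TPM in RUNX1mut and 216 TPM in Control (log2 1.41), and the shared light chain B2m 1096 TPM in RUNX1mut and 669 TPM in Control (log2 0.53). H2-D1 (short-transcript) and the peptide transporter subunit Tap1 were at 0.25 and 0.54. In the pair with HMGA2-OE the median of this list was -0.25, with H2-K1 at -0.44.

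Interferon response genes were moderately higher, apart from the Ifitm family. Of 31 genes 28 were kept, 22 above 0, 3 at least 2-fold higher and 1 at least 2-fold lower, with a median of 0.53. The guanylate-binding protein Gbp2 was at 18.4 TPM in RUNX1mut and 5.14 TPM in Control (log2 1.499), and the GTPase Ifi47 at 16.1 TPM in RUNX1mut and 5.43 TPM in Control (log2 1.25). Ifit1, Oas1a and Irgm1, which act in antiviral defence, had log2 ratios of 0.89, 0.84 and 0.82. Ifitm1, a membrane protein that limits viral entry, was at 54.3 TPM in RUNX1mut, 54.7 TPM in RUNX1mut/HMGA2-OE, 546 TPM in HMGA2-OE and 215 TPM in Control (log2 -2.15, and -4.54 in the pair with HMGA2-OE). Both mutant libraries were below both others for Ifitm1. Its relatives Ifitm2, Ifitm3 and Ifitm6 were at -0.65, -0.49 and -0.62. In the pair with HMGA2-OE the list median was -0.27.

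Genes of other blood lineages were mostly higher in RUNX1mut, at levels far below those of neutrophil genes. Many of these genes passed the 1 TPM filter through the RUNX1mut library alone, where they had to differ, so their counts describe the kept genes and not all listed ones. Of 23 eosinophil, basophil and mast cell genes 17 were kept, 11 at least 2-fold higher and 0 lower, with a median of 1.41. Prg2, eosinophil major basic protein, was at 70.1 TPM in RUNX1mut, 56.6 TPM in RUNX1mut/HMGA2-OE, 8.24 TPM in HMGA2-OE and 4.37 TPM in Control (log2 3.56). The basophil protease Prss34 was at 51.1 TPM in RUNX1mut and 7.57 TPM in Control (log2 2.44), and Mcpt8, another, at 24.2 TPM in RUNX1mut and 2.07 TPM in Control (log2 2.89). In the pair with HMGA2-OE, Prg2 was at 1.45 but Prss34 and Mcpt8 were at -0.57 and -0.70. The 7 defining markers of these cells were all at 1 TPM or more in RUNX1mut and 3 were in Control, with none listed at 0 and sums of 116 TPM in RUNX1mut and 12.02 TPM in Control, or 79.3 TPM in RUNX1mut/HMGA2-OE and 19.6 TPM in HMGA2-OE. Of the 17 kept genes 4 were below 0. Among them were Ear2, an eosinophil-associated ribonuclease, at 54.1 TPM in RUNX1mut and 86.3 TPM in Control (log2 -0.84), and Hdc (short-transcript, log2 -0.38). Siglecf (short-transcript), of the 7 markers, was also lower, with 3.29 TPM in RUNX1mut and 3.91 TPM in Control (log2 -0.33).

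Of 32 erythroid genes 21 were kept, 14 at least 2-fold higher and 1 at least 2-fold lower (Car1, short-transcript), with a median of 1.13. Alpha globin Hba-a2 was at 225 TPM in RUNX1mut, 1129 TPM in RUNX1mut/HMGA2-OE, 48.6 TPM in HMGA2-OE and 62.4 TPM in Control (log2 1.65). Beta globin Hbb-bt was at 61.6 TPM in RUNX1mut, 265 TPM in RUNX1mut/HMGA2-OE, 12.8 TPM in HMGA2-OE and 12.01 TPM in Control (log2 2.096). Globin was higher in both mutant libraries and highest in RUNX1mut/HMGA2-OE. The alpha copies Hba-a1 and Hba-a2 and the beta copies are near-identical, so the split of reads among them is uncertain. With 1 library a genotype, whether the direction would hold in other mice is unknown. The 9 erythroid markers summed to 541 TPM in RUNX1mut, 6950 TPM in RUNX1mut/HMGA2-OE, 127 TPM in HMGA2-OE and 157 TPM in Control. Of 26 megakaryocyte and platelet genes 21 were kept, 9 at least 2-fold higher and 1 lower (Itgb3, log2 -1.36), with a median of 0.77, beside -0.99 between the replicate HSCP libraries. Platelet factor 4, Pf4 (short-transcript), had 18.6 TPM in RUNX1mut and 1.32 TPM in Control (log2 2.94), and the integrin chain Itga2b (short-transcript) 16.2 TPM in RUNX1mut and 0.325 TPM in Control. Ppbp and Treml1 were at 2.32 and 1.45 TPM in RUNX1mut and listed at 0 in Control. The platelet direction did not hold at 10 TPM or more, where the median was -0.12.

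B lymphoid, macrophage and progenitor genes showed the same direction. Of 28 B lymphoid genes 23 were kept, 9 at least 2-fold higher and 0 lower, with a median of 0.87. They included Vpreb3, at 21.9 TPM in RUNX1mut and 6.86 TPM in Control (log2 1.38). Igll1, a surrogate light chain gene of pre-B cells, was at 18.2 TPM in RUNX1mut and 3.41 TPM in Control (log2 1.97). Of 31 monocyte and macrophage genes 23 were kept, 8 at least 2-fold higher and 1 at least 2-fold lower, with a median of 0.86. The complement gene C1qb was at 28.03 TPM in RUNX1mut and 9.41 TPM in Control (log2 1.31), and the lysosomal protease Ctss at 42.5 TPM in RUNX1mut and 10.5 TPM in Control (log2 1.75). The monocyte surface gene Ly6c2 went the other way with 788 TPM in RUNX1mut and 1411 TPM in Control (log2 -1.02). Of 30 stem and progenitor genes 17 were kept, 6 at least 2-fold higher and 0 lower, with a median of 0.88, Cd34 having 7.103 TPM in RUNX1mut and 0.268 TPM in Control (log2 2.58). Below 0 were 3 of these genes: the stem cell factor receptor Kit (short-transcript, log2 -0.54), Prom1 (-0.73) and Erg (-0.27). T and NK cell genes (11 of 26 kept) had a median of 0.80 with 3 at least 2-fold higher and 0 lower, and their 7 markers summed to 12.8 TPM in RUNX1mut and 7.39 TPM in Control. Stromal and endothelial genes were at low levels: 3 of 18 were kept, with a median of 0.50 and marker sums of 1.56 TPM in RUNX1mut and 0.806 TPM in Control, where Cdh5 was listed at 0. Dendritic cell genes (5 of 12 kept) had a median of 0.71 with 1 at least 2-fold higher and 0 lower, and 0 of 5 sex-linked genes were kept. The part of other cell types in these ratios was not tested.

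**Figure D4:**
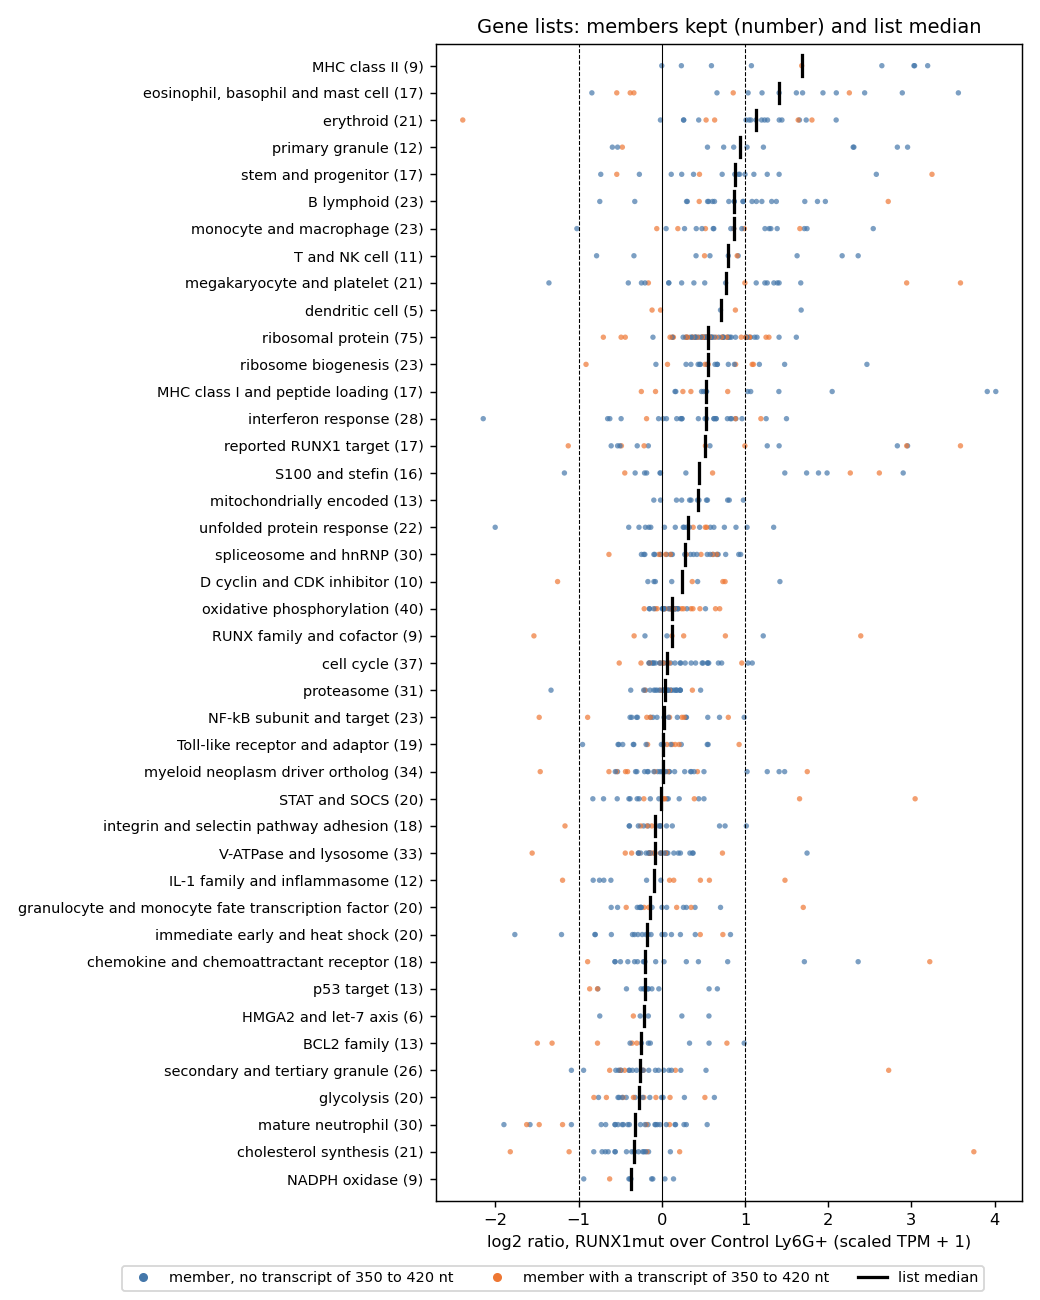
Log2 ratio of RUNX1mut over Control Ly6G+ cells (horizontal axis, scaled TPM plus 1) for the kept members of each gene list with 5 or more of them (number in brackets), ordered by list median. Blue and orange points are members without and with an annotated transcript of 350 to 420 nt, black bars are medians and dashed lines mark 2-fold; medians run from 1.68 for MHC class II at the top to -0.37 for the NADPH oxidase at the bottom.

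S100 proteins and stefins, small cytosolic proteins abundant in neutrophils, split into 2 behaviours. The calprotectin genes were close between the libraries, with log2 ratios of -0.32 for S100a8 and -0.21 for S100a9. The stefin A genes, cysteine protease inhibitors in a cluster on chromosome 16, were higher: Stfa2 was at 231 TPM in RUNX1mut, 2126 TPM in RUNX1mut/HMGA2-OE, 57.2 TPM in HMGA2-OE and 26.5 TPM in Control (log2 2.901). Stfa1 was at 604 TPM in RUNX1mut and 191 TPM in Control (log2 1.48), and Stfa3 (short-transcript) at 173 TPM in RUNX1mut and 24.1 TPM in Control (log2 2.61). The stefin A copies are closely related, so the split of reads among them is uncertain. S100a10 and S100a4, both low, were at 1.88 and 1.74. Over the 16 kept of 17 genes, 7 were at least 2-fold higher and 1 lower, with a median of 0.45.

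Among 22 reported RUNX1 targets 17 were kept, 6 at least 2-fold higher and 1 at least 2-fold lower, with a median of 0.52 and 9 above 0. The higher ones were genes of other lists, among them Mpo and Elane of the primary granule and the low megakaryocytic genes Itga2b, Pf4 and Gata2. Of these, Itga2b and Gata2 passed the 1 TPM filter through the RUNX1mut library alone, where they had to differ. Other targets were closer together. The transcription factor PU.1, Spi1 (short-transcript), was at 554 TPM in RUNX1mut and 566 TPM in Control (log2 -0.21) and the chromatin regulator Ikzf1 at -0.29. Csf1r (short-transcript) was above 0, with 55.4 TPM in RUNX1mut and 33.7 TPM in Control (log2 0.52). The nonmuscle myosin Myh10 (short-transcript), which RUNX1 represses in megakaryocytes, was the lower one with 1.74 TPM in RUNX1mut and 4.46 TPM in Control. Of 24 transcription factors of granulocyte and monocyte fate 20 were kept, 1 was at least 2-fold higher (Myc, short-transcript, log2 1.700) and 0 lower. Gfi1, a repressor needed for neutrophil differentiation, was at 6.54 TPM in RUNX1mut and 9.299 TPM in Control (log2 -0.61), Cebpb at 0.30 and the monocyte factor Irf8 at 0.71. Their median was -0.14 and became 0.03 without scaling, so no direction is given for this list. Mouse orthologs of myeloid neoplasm drivers (34 of 38 kept) had a median of 0.01 with 5 at least 2-fold higher and 1 lower, and the HMGA2 and let-7 axis (6 of 14 kept) one of -0.21 with 0 genes 2-fold apart.

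Ribosomal genes were broadly but moderately higher. Of 79 ribosomal protein genes 75 were kept, 71 above 0, 14 at least 2-fold higher and 0 lower, with a median of 0.56 (0.60 over the 41 without a short transcript). Ribosomal protein genes have many processed copies in the genome, among which reads can be split. Rpl36a was at 41.8 TPM in RUNX1mut and 11.4 TPM in Control (log2 1.62), and Rpl14 at 51.6 TPM in RUNX1mut and 20.1 TPM in Control (log2 1.14). Of 24 ribosome biogenesis genes 23 were kept, 21 above 0, 5 at least 2-fold higher and 0 lower, with a median of 0.56. The nucleolar chaperone Npm1 was at 36.5 TPM in RUNX1mut, 49.1 TPM in RUNX1mut/HMGA2-OE, 10.2 TPM in HMGA2-OE and 10.98 TPM in Control (log2 1.48), and the RNA methyltransferase fibrillarin, Fbl, at 8.47 TPM in RUNX1mut and 0.585 TPM in Control (log2 2.47). Fbl, Gnl3 and several other biogenesis genes passed the 1 TPM filter through the RUNX1mut library alone, where they had to differ. The counts of this list therefore describe the kept genes and not all listed ones. All 13 mitochondrially encoded genes were kept, 11 above 0 and 0 at least 2-fold apart, with a median of 0.43. The replication licensing genes Mcm3 and Mcm6 were at 1.09 and 1.04, yet the 37 cell cycle genes had a median of 0.07 with 2 at least 2-fold higher and 0 lower, and the kinase Cdk4, of the D cyclin and CDK inhibitor list (10 of 15 kept, median 0.24, 1 at least 2-fold higher and 1 lower), was at 21.2 TPM in RUNX1mut and 6.403 TPM in Control (log2 1.42).

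Metabolic and stress genes differed little as groups. Of 24 cholesterol synthesis genes 21 were kept and 18 were below 0, with a median of -0.33, beside 0.37 between the replicate HSCP libraries, and 1 was at least 2-fold higher and 2 lower. All 3 of these were short-transcript genes. Lanosterol synthase, Lss, was at 1.04 TPM in RUNX1mut and 5.61 TPM in Control (log2 -1.82), and the higher one was the regulator Srebf1 (89.6 TPM in RUNX1mut and 5.01 TPM in Control). Cyp51, another synthesis enzyme, was at -0.68. Glycolysis genes (20 of 22 kept) had a median of -0.27 and 0 were 2-fold apart, with Pgam1 at -0.53 and Pfkfb4 at -0.76. Of the 22 unfolded protein response genes, all kept, 16 were above 0, 2 at least 2-fold higher and 1 lower, with a median of 0.31. The lower one was asparagine synthetase, Asns, at 8.15 TPM in RUNX1mut, 35.7 TPM in RUNX1mut/HMGA2-OE, 35.4 TPM in HMGA2-OE and 31.6 TPM in Control (log2 -2.002, and -1.21 in the pair with HMGA2-OE). Other genes of the same ATF4 programme were mixed in RUNX1mut over Control. Atf4 was at 0.58 and Trib3 at 0.89, while Chac1 was at -0.40 and Ddit3 at -0.16. Medians were -0.21 for p53 targets (13 of 18 kept, 0 at least 2-fold apart) and -0.24 for the BCL2 family (13 of 20 kept, 0 at least 2-fold higher and 2 lower). The 40 oxidative phosphorylation and 30 spliceosome genes, all kept, had medians of 0.12 and 0.28 with 0 at least 2-fold apart, and the 31 proteasome genes, all kept, one of 0.04 with 1 at least 2-fold lower.

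Signalling genes of activated neutrophils were mostly close to 0, and 2 immediate early genes were lower. Fos, a subunit of the AP-1 factor, was at 63.2 TPM in RUNX1mut, 60.6 TPM in RUNX1mut/HMGA2-OE, 97.8 TPM in HMGA2-OE and 192 TPM in Control (log2 -1.77, and -1.92 in the pair with HMGA2-OE). The MAP kinase phosphatase Dusp1 was at 168 TPM in RUNX1mut, 204 TPM in RUNX1mut/HMGA2-OE, 249 TPM in HMGA2-OE and 344 TPM in Control (log2 -1.205 and -1.54). Both mutant libraries were below both others for each gene. Junb and Jun were at -0.61 and -0.80, and Zfp36 and Ier2 at -0.35 and -0.29. The 20 kept of 26 immediate early and heat shock genes had a median of -0.18 with 0 at least 2-fold higher and 2 lower. Between the replicate HSCP libraries this median was -0.41, larger in size. The 250 bases before the start of Fos (RefSeq, GRCm38.p6, chr12:85473640-85473889, plus strand) are shown because Fos was the immediate early gene with the largest ratio. Capitals mark CRE letters 66 bases before the start, a known element of this promoter, and the RUNX letters were not in this window.
Fos: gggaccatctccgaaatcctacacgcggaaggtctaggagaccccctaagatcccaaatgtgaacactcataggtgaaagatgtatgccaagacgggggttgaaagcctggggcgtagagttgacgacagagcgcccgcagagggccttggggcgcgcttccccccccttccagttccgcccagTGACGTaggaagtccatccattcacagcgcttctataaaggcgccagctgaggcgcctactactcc

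Of 24 chemokine and chemoattractant receptor genes 18 were kept, 3 at least 2-fold higher and 0 lower, with a median of -0.21, beside 0.62 between the replicate HSCP libraries. The 3 were the monocyte receptor Ccr2 (log2 1.71), the chemokine Ccl5 (13.3 TPM in RUNX1mut, 1.53 TPM in Control) and the short-transcript gene Ccl9, whereas the neutrophil receptors Fpr1, C5ar1 and Ltb4r1 were at -0.41, -0.33 and -0.50. Medians were 0.02 for Toll-like receptors and their adaptors, 0.03 for NF-kB subunits and targets, -0.10 for the IL-1 family and inflammasome, -0.01 for STAT and SOCS genes and -0.08 for leukocyte adhesion genes. The last 3 of these became positive without scaling, at 0.07, 0.17 and 0.08, and the STAT and SOCS median was also above 0 under the 3 other scalings, so no direction is given for them. Kept were 19 of 22 Toll-like receptor, 23 of 24 NF-kB, 12 of 18 IL-1 family, 20 of 20 STAT and SOCS and 18 of 18 adhesion genes, of which 0, 0, 1, 2 and 1 were at least 2-fold higher and 0, 1, 1, 0 and 1 at least 2-fold lower. Within them Il1rn, the natural antagonist of the IL-1 receptor, was at 90.6 TPM in RUNX1mut and 123 TPM in Control (log2 -0.61), Nlrp3 at -0.82, and the cytokine Osm at -0.83. Lysosome and V-ATPase genes (all 33 kept) had a median of -0.08, which became 0.09 without scaling, with 1 at least 2-fold higher and 1 lower. The short-transcript gene Cish, a feedback inhibitor of cytokine signalling, had 41.1 TPM in RUNX1mut and 3.58 TPM in Control (log2 3.04), and -0.18 in the pair with HMGA2-OE.

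The mutation was measured a second time in Ly6G+ cells, in RUNX1mut/HMGA2-OE against HMGA2-OE, a pair that shares no library with RUNX1mut and Control but differs from it in HMGA2-OE, so it is not a replicate. In that pair 5.82% of 10945 genes were at least 2-fold higher and 5.21% at least 2-fold lower. Of 9714 genes kept in both pairs, 132 (1.36%) were at least 2-fold higher in both, which is 26.2% of the 503 (5.18%) higher in RUNX1mut over Control and 29.9% of the 441 (4.54%) higher in the pair with HMGA2-OE. At least 2-fold lower in both were 122 (1.26%), 36% of 339 (3.49%) and 23.5% of 519 (5.34%). Opposite directions were taken by 43 genes higher in RUNX1mut over Control (8.55% of 503) and 27 lower there (7.96% of 339). Of all 9714 genes, 5.34% were lower and 4.54% higher in the pair with HMGA2-OE, so opposite calls were above those shares too. Without short-transcript genes 88 were higher in both (29% and 38.8% of the lists), 65 lower in both (42.2% and 31%), and 10 and 11 were opposite (3.3% of 303 higher and 7.14% of 154 lower in RUNX1mut over Control). Of all 7128 such genes, 210 were lower and 227 higher in the pair with HMGA2-OE. The 3.3% was thus close to the share over all such genes, and the 7.14% was above it.

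The genes highest in both pairs at 10 TPM or more were Stfa2, Penk, Grap, H2-Eb1, Hbb-bt, Serpina3g, Hba-a1 and Hba-a2, with the short-transcript genes Stfa3, Pf4, Runx3 and Axl. Penk, which encodes proenkephalin, the precursor of enkephalins, was at 36.1 TPM in RUNX1mut, 39.4 TPM in RUNX1mut/HMGA2-OE, 1.19 TPM in HMGA2-OE and 3.81 TPM in Control (log2 2.79 and 3.22). The serine protease inhibitor Serpina3g was at 17.2 TPM in RUNX1mut, 16.1 TPM in RUNX1mut/HMGA2-OE, 1.21 TPM in HMGA2-OE and 0.753 TPM in Control (log2 3.25 and 1.99). The signalling adaptor Grap had log2 ratios of 3.19 and 2.26. For Penk, Serpina3g and Grap both mutant libraries were above both others. Lowest in both were Ifitm1, Apoc2, Fos, Wfdc17 and Haao, with the short-transcript genes Stk39, Cacfd1, Clec4e, Atp6v0a1, Cbfa2t2, Rogdi and Mgst2. Apoc2, a cofactor of lipoprotein lipase, was at 4.31 TPM in RUNX1mut, 9.65 TPM in RUNX1mut/HMGA2-OE, 22.7 TPM in HMGA2-OE and 15.9 TPM in Control (log2 -1.83 and -2.32), and Haao, an enzyme of the kynurenine pathway, had log2 ratios of -1.47 and -1.98.

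**Figure D5:**
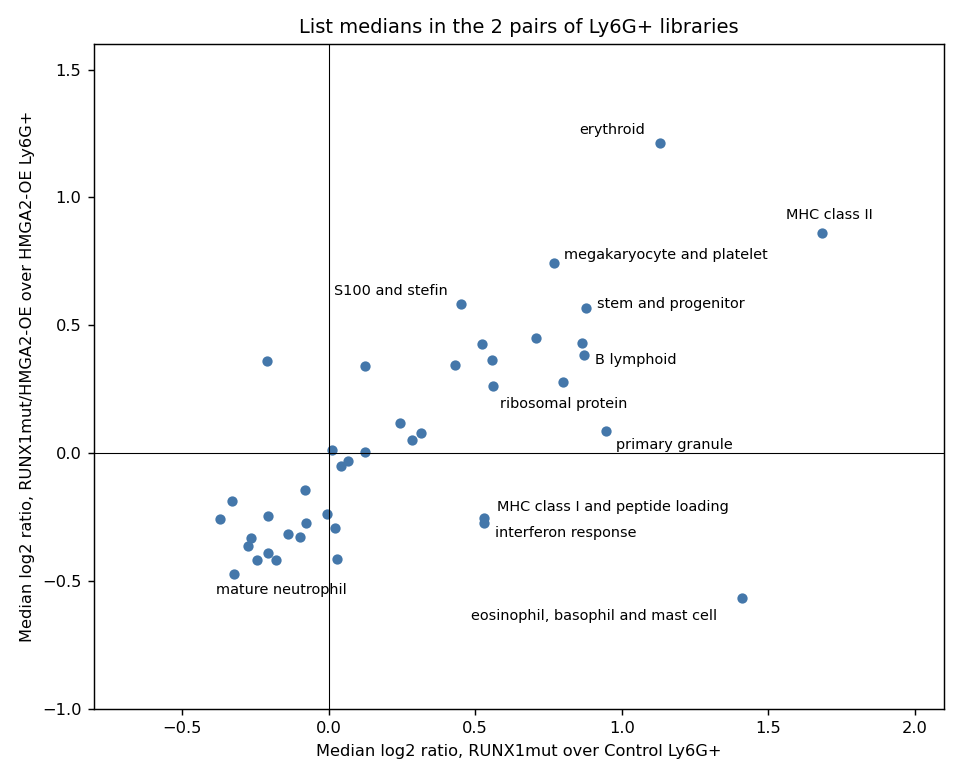
Median log2 ratio of each gene list with 5 or more kept members in RUNX1mut over Control (horizontal axis) and in RUNX1mut/HMGA2-OE over HMGA2-OE Ly6G+ cells (vertical axis), 1 point a list, each median over the members kept in that pair. MHC class II (1.68 and 0.86) and erythroid (1.13 and 1.21) lists are positive in both pairs, the mature neutrophil list (-0.32 and -0.47) is negative in both, and the eosinophil, basophil and mast cell list (1.41 and -0.57) differs in sign.

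By list, the pair with HMGA2-OE had medians of 0.86 for MHC class II, 1.21 for erythroid, 0.74 for megakaryocyte and platelet, 0.43 for monocyte and macrophage, 0.38 for B lymphoid and 0.57 for stem and progenitor genes, all positive as in RUNX1mut over Control. The mature neutrophil list was at -0.47 and the later granule list at -0.33, both negative as in RUNX1mut over Control. The primary granule list was at 0.09 with 0 genes at least 2-fold higher and 1 lower, against 0.94 with 6 higher in RUNX1mut over Control. Whether these lists differed between the pairs was not tested, as each pair has 1 library a side.

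The RUNX letters TGTGGT, on either strand, were in 14.7% of 498 promoters of the genes at least 2-fold higher and in 11.2% of 375 promoters of those at least 2-fold lower, beside 11.4% of 9795 promoters of all kept genes and 14.0% of 32851 in the RefSeq table. CCAAT was in 38.6% and 32.5% of the promoters of higher and lower genes and in 35.4% of those of all kept genes, and the CRE letters in 9.24%, 8.0% and 9.92%. Without short-transcript genes the RUNX letters were in 16.4% of 269 promoters of higher genes and 13.6% of 140 of lower genes. Promoters were matched for 407 of 578 annotated higher genes and 272 of 417 lower ones, and a match is a description of letters and not of binding.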

How the data were processed

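RNA sequencing libraries of C57BL/6 bone marrow cells were analysed, 4 of sorted Ly6G+ cells and 3 of HSCPs, with total RNA extracted by RNeasy Mini Kit per the labels' protocols. The submitters' processing notes name bcl2fastq, CASAVA 1.8, kallisto and the build mm10; no version, index or annotation for kallisto is recorded there. The table deposited by the authors holds TPM, as read from the values: they are not whole numbers and the Ly6G+ columns sum to between 984650 and 993009, although the table is named as one of counts. TPM depends on the transcripts in the index and carries no depth, so the precision of single values is unknown. Symbols, transcript lengths and coordinates came from GENCODE M21 (GRCm38) for 27475 of 28987 identifiers, and unmatched identifiers held up to 1.29% of TPM in RUNX1mut and Control.

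From the deposited TPM, the log ratios of each pair of libraries were centred on their trimmed mean without weights (0.3 of ratios and 0.05 of levels trimmed at each end) over genes with 1 TPM or more in either, 1 TPM was added, and log2 ratios were taken. A gene was counted at 2-fold or more, and no test was made with 1 library a side. The 44 lists held 985 distinct genes, 973 of them in the table, and genes can be in several lists. The members and lists were chosen with earlier results of these data known. The text names Runx1, Runx2, Runx3, Cbfb and Hmga2; the 20 highest and 20 lowest ratios at 10 TPM or more; list members from the 6 with the largest ratios at 5 TPM or more; and the 12 genes at 10 TPM or more with the largest smaller ratio in both pairs, each way. Other genes were named after their values were seen: the low genes Cxcr1, Ppbp, Treml1, Myh10, Cd34 and others, abundant neutrophil genes with small ratios, and further list members. Some genes that this rule gives are not reported here. Settings tried were no scaling, scaling to equal medians or upper quartiles, S100a8 and S100a9 left out of the total, 0.1 or 5 TPM added, filters of above 0, 5 and 10 TPM, and genes with transcripts of 350 to 420 nt left out. The procedure was tested on simulated data. Promoters (250 bases before the start) came from RefSeq. Python 3.11.15, numpy 2.4.6, pandas 2.3.3 and matplotlib 3.10.9 were used.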

Additional observations from a re-analysis of the deposited data

Results flagged for a closer look

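The 2 pairs of Ly6G+ libraries that differ in the RUNX1 mutation took opposite directions, by 0.25 or more in both medians, for 3 gene lists, and by 2-fold or more in both pairs for 1 named gene without a transcript of 350 to 420 nt; in each case the difference between the pairs was not tested, since each side is 1 library. The interferon response list had a median log2 ratio of 0.53 for RUNX1mut over Control and -0.27 for RUNX1mut/HMGA2-OE over HMGA2-OE, or -0.32 there over the same members. The MHC class I and peptide loading list had medians of 0.53 and -0.25 in these pairs. The eosinophil, basophil and mast cell list had medians of 1.41 over 17 kept members and -0.57 over the 15 kept in the pair with HMGA2-OE, where the same 17 members gave -0.30, with basophil Mcpt8 at 2.89 and -0.70. S100a13 had a log2 ratio of -1.17 for RUNX1mut over Control and 3.98 for RUNX1mut/HMGA2-OE over HMGA2-OE, with 14.3 TPM in RUNX1mut, 22.9 TPM in RUNX1mut/HMGA2-OE, 0.00262 TPM in HMGA2-OE and 29.6 TPM in Control, so the HMGA2-OE library alone was near 0. In all, 15 genes with 10 TPM or more in a library of each pair were at least 2-fold opposite ways.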

How the results depend on the processing

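Genes at least 2-fold higher in RUNX1mut, lower, and the same way in both pairs numbered 593, 426 and 254. Adding 0.1 TPM instead of 1 gave 1044 higher and 502 in both, and adding 5 TPM gave 189, 173 and 76. Requiring 5 TPM gave 354, 251 and 165, and 10 TPM gave 240, 185 and 105. Leaving out genes with a transcript of 350 to 420 nt before scaling, with genes lacking an annotation kept, gave 341, 196 and 155; the report's counts without these genes keep the scaling over all genes. Without scaling 525 genes were the same way in both pairs. Scaling to equal medians or upper quartiles, leaving S100a8 and S100a9 out of the total, keeping every gene above 0, and leaving out only transcripts of 350 to under 380 nt (chosen after seeing the data) moved these counts by less than 1.5 times. The D cyclin and CDK inhibitor list median, 0.24, was -0.037 over genes above 0, and the megakaryocyte and platelet median, 0.77, was -0.12 at 10 TPM or more; the cause was not tested. Of 286 genes that the naming rule gives, 149 had a value under every setting. Small ratios changed sign without scaling for Cdkn1b (-0.08 to 0.08) and Rbl2 (-0.09 to 0.07) among these genes, and for Lcn2, Camp, Cxcr2 and H2-DMb2, named after their values were seen, at 0.10, 0.02, 0.11 and 0.17; no other of the 286 changed sign where it had a value. Of the 286, 43 moved by more than the replicate SD with 0.1 TPM added and 93 with 5 TPM added. No paired analysis was possible because each Ly6G+ genotype has 1 library, and for the same reason no replicate could be left out. TPM carries no read counts, so which low values counting error limits is unknown, and the spread between mice is unmeasured in Ly6G+ cells.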

Other observations

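Genes outside the lists and without an annotated transcript of 350 to 420 nt are given here, chosen after their values were seen. Higher in RUNX1mut at 10 TPM or more were Man2a2, a Golgi enzyme of N-glycan trimming, with 12.8 TPM in RUNX1mut and 1.38 TPM in Control (log2 2.403), and Lsm7, a subunit of the U6-binding LSM ring, with 25.3 TPM in RUNX1mut and 3.61 TPM in Control (log2 2.36). Lztr1, an adaptor for the degradation of RAS proteins, had 42.2 TPM in RUNX1mut and 6.602 TPM in Control (log2 2.34, and 0.30 in the pair with HMGA2-OE). Lower were Lmo1, a LIM domain transcriptional cofactor, with 3.02 TPM in RUNX1mut, 0.407 TPM in RUNX1mut/HMGA2-OE, 6.24 TPM in HMGA2-OE and 17.1 TPM in Control (log2 -2.32, and -3.08 in the pair with HMGA2-OE). The tight junction gene Cldn1 had 1.85 TPM in RUNX1mut and 11.7 TPM in Control (log2 -2.300 and -2.72), and the adhesion gene Ncam1 5.21 TPM in RUNX1mut and 19.3 TPM in Control (log2 -1.87 and -2.25). Nt5e, which encodes the ecto-nucleotidase CD73, had 7.41 TPM in RUNX1mut and 21.2 TPM in Control (log2 -1.57 and -1.27). For Lmo1, Cldn1, Ncam1 and Nt5e each mutant library was below each library without the mutation. Ggt1, an enzyme of glutathione breakdown, had 5.14 TPM in RUNX1mut, 22.4 TPM in RUNX1mut/HMGA2-OE, 12.05 TPM in HMGA2-OE and 19.6 TPM in Control (log2 -1.91 and -0.34).

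By annotated type, 480 of 9302 protein-coding genes kept were at least 2-fold higher and 321 at least 2-fold lower. Of 206 processed pseudogenes 50 were higher and 40 lower, and of 187 antisense genes 23 were higher and 29 lower. Over all kept genes 5.88% were higher and 4.23% lower, and processed pseudogenes and antisense genes were above these shares in each direction. Pseudogenes share sequence with their parents, and whether the quantification used strand is not given in the sources used here, so single pseudogenes and antisense genes are not named.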
